A study of Homo sapiens with 12 samples.

Results

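The genes described here are 9 assembly factors of cytochrome c oxidase, complex IV of the mitochondrial respiratory chain: SCO1, SCO2, COX17, COX11, COX19, COX10, COX15, COX18 and SURF1. They were found by symbol in a table of 23686 genes, and all 9 passed the filter on low values that left 13956 genes for testing. SCO2 was chosen by its measured TPM, which fell with H2O2 against IgG in HCT116 cells, so its values in that contrast are given as a description with no test. The other 8 were taken for their place in the same pathway, though with earlier results of these data known.

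RNA was sequenced from MDA-MB-231, a human breast cancer line grown in DMEM, and from HCT116, a human colon cancer line grown in McCoy 5a medium, both with 10% FBS. Each line had 3 groups of 2 libraries, 12 libraries in all: control IgG without H2O2, IgG with 100 µM H2O2 for 8 h, and an antibody labelled anti-Hsp60N with the same H2O2. They are called the IgG, H2O2 and antibody groups below. No group had the antibody without H2O2, so an effect of the antibody by itself cannot be told apart from its effect in the presence of H2O2. Nothing in the labels says whether the 2 libraries in a group are separate cultures, and p-values therefore measure only the spread between these libraries. Each condition was studied in 1 line of each tissue, and the lines also differed in medium.

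Cytochrome c oxidase passes electrons from cytochrome c to oxygen, and needs copper and heme A to do so. COX17 is the copper chaperone of the intermembrane space that hands copper to SCO1 and SCO2, which serve the copper site of subunit COX2, and to COX11, which serves the copper site of subunit COX1. COX19 is a small soluble partner of this copper route. COX10 and COX15 make heme A from heme, COX18 helps to insert COX2 into the inner membrane, and SURF1 acts early in the assembly of COX1. SCO2 is also known as a gene that p53 activates.

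Upstream sequences of members that passed a test with H2O2 in HCT116 are shown first, with the matches to motifs of factors known for nuclear genes of mitochondria. RefSeq windows of 250 bases before the start (GRCh38.p14) matched 7 of the 9 members, all but SCO2 and COX11, with 9 windows. The motifs searched on both strands included the NRF1 (nuclear respiratory factor 1) palindrome with 1 free base. The others were CCGGAAG for ETS factors such as GABPA, the ATF4 element TGATGNAAN, and a part of the p53 element. That part, given by its name, is shorter than the full p53 element, which was not searched. Matches of different motifs were counted separately, whether or not they overlapped. The stretches printed run 5′ to 3′ on the minus strand, are the parts of such windows with at least 200 bases that no GENCODE 29 exon overlaps, and carry NRF1 and ETS matches in capitals. They are COX17 at chr3:119677455-119677656, COX18 at chr4:73069760-73070009 and COX19 at chr7:975600-975799. A further stretch of COX17 and one of COX18 were also long enough and are not printed. SCO1 also passed a test, but had no such stretch.
COX17: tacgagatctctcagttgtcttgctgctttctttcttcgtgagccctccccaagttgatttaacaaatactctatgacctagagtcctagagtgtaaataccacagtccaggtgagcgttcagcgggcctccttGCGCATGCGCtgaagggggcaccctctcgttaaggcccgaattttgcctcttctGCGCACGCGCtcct
COX18: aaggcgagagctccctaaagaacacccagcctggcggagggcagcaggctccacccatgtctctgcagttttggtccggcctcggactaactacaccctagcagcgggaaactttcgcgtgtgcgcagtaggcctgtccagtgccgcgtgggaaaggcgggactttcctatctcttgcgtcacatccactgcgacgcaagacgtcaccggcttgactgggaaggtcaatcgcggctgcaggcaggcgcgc
COX19: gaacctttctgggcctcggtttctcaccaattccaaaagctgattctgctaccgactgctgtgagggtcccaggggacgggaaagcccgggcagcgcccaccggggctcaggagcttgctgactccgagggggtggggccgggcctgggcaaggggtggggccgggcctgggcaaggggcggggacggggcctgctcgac

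The COX17 stretch held 2 NRF1 matches, and the stretch printed for COX18 held none. The window of a second annotated COX18 start nearby held 2, and the window of the second COX17 start held 1 ETS match. Of the other windows, COX10 held 2 ETS matches and COX15 and SCO1 held 1 each, while COX19 and SURF1 held neither motif. The ATF4 element and the searched part of the p53 element had no match in any of these windows. Over 35116 RefSeq windows of the same length, 5.07% held the NRF1 letters and 8.52% the ETS letters. The ATF4 letters were in 3.13% of them, and the searched part of the p53 element in 5.57%. A match describes these letters only.

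Correlations over the genes tested were 0.994 to 0.996 within groups, against 0.985 to 0.995 between other groups of the line and 0.787 to 0.796 between lines. Genes at 1 TPM or more numbered 12411 to 12653 per library. TPM, the transcript level scaled to length and to the library total, keeps no read depth, so the depth is unknown and no counting interval is given. The labelled lines were checked with markers. The 7 epithelial markers summed to 4460.3 to 4760.4 TPM in HCT116 and 1331 to 1481 TPM in MDA-MB-231, and the mesenchymal markers to 529 to 573 and 3459.6 to 3923 TPM. Most of the epithelial sums came from KRT8 and KRT18. All 7 epithelial markers were at 1 TPM or more in every HCT116 library, and 3 of them in every MDA-MB-231 library. For the mesenchymal markers it was 5 of 6 in both lines. Markers of blood, endothelium and fibroblasts summed to 5.95 to 8.43 TPM in HCT116 and 10.3 to 15.2 TPM in MDA-MB-231, with 1 and 2 of the 9 at 0 in every library.

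COX17 was the most abundant member in both lines, with a mean over the 6 libraries of 189 ± 7.09 TPM (SD, n = 6) in MDA-MB-231 and 224 ± 27.6 TPM in HCT116. TPM is scaled by transcript length, so levels of different genes can be set side by side. In MDA-MB-231 the order below COX17 was COX11 at 57.8 ± 4.88, SCO1 at 56.2 ± 2.39, SURF1 at 38.5 ± 2.2 and SCO2 at 24.3 ± 4.26 TPM. COX10 followed at 15.6 ± 1.35, COX18 at 11.7 ± 0.655, COX15 at 8.93 ± 0.177 and COX19 at 6.60 ± 0.382 TPM. Only COX11 and SCO1 overlapped as neighbours in that order.
In HCT116 the order was COX17, SURF1 at 75.6 ± 5.41, SCO1 at 73.1 ± 6.05, COX11 at 46.8 ± 4.04 and COX15 at 37.6 ± 3.29 TPM, then COX10 at 22.7 ± 0.493, SCO2 at 15.7 ± 6.17, COX19 at 10.9 ± 1.73 and COX18 at 4.71 ± 0.783 TPM. There 4 neighbouring pairs overlapped: SURF1 with SCO1, COX11 with COX15, COX10 with SCO2, and SCO2 with COX19. These spreads cover all 3 groups of a line, and the wide spread of SCO2 in HCT116 is that of its groups. Its place in the HCT116 order also depends on pooling them: under IgG alone the means were 23.4 TPM for SCO2 and 22.8 TPM for COX10.

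**Figure D1:**
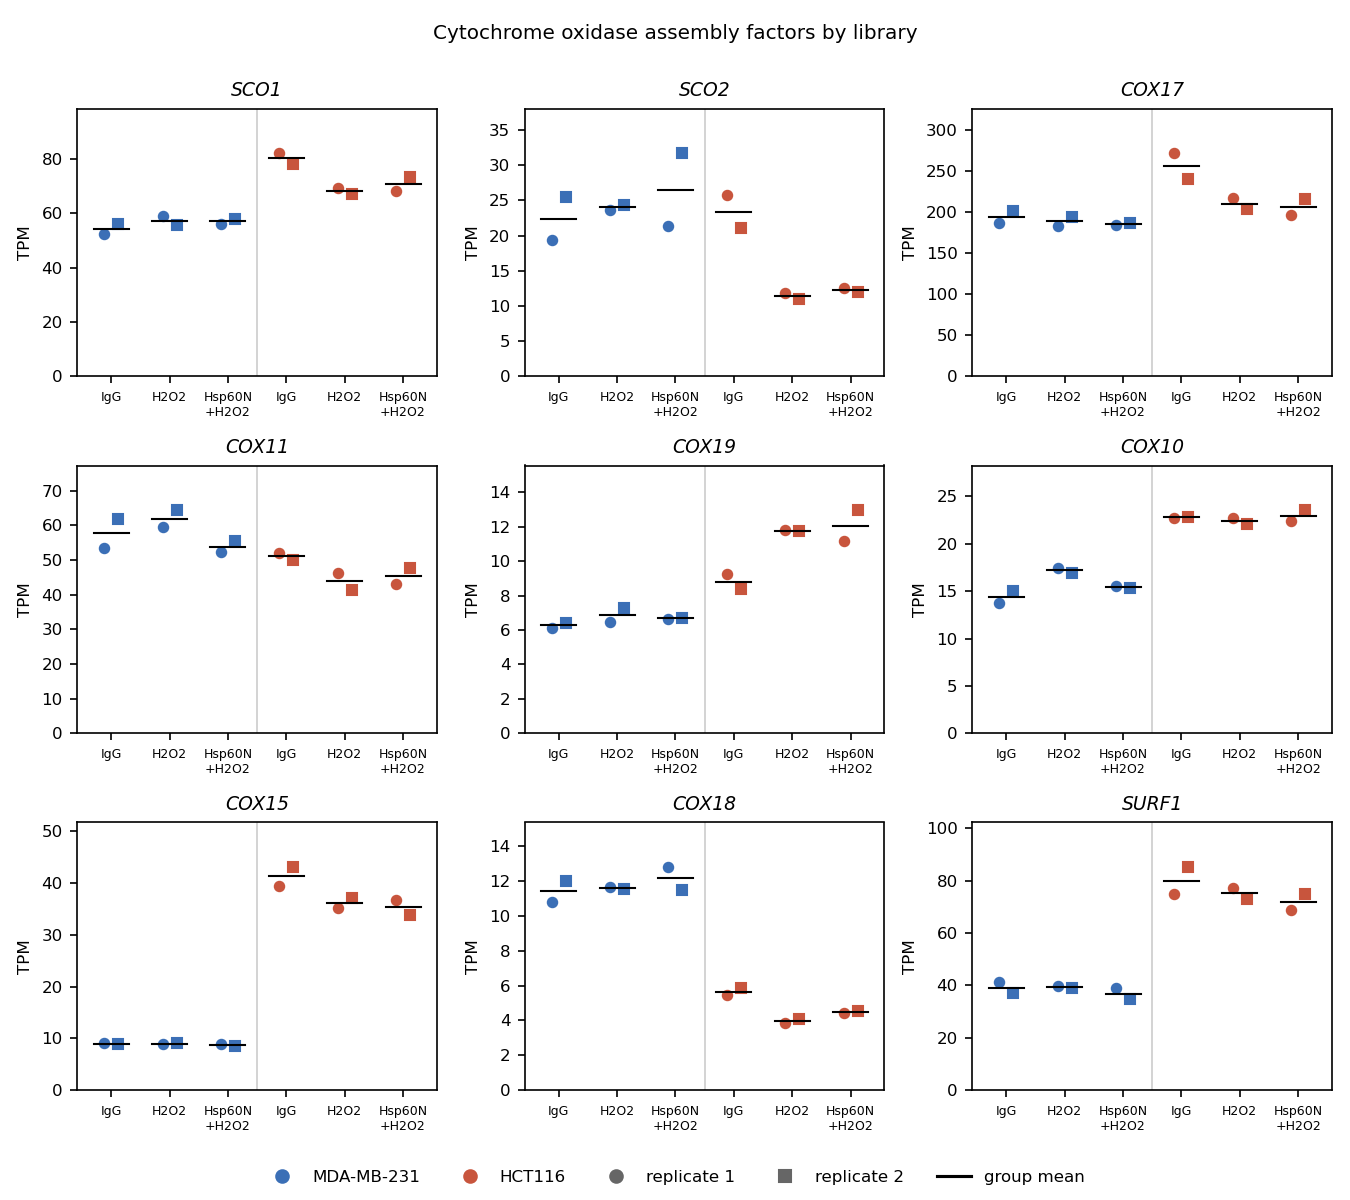
TPM of the 9 assembly factors in each of the 12 libraries, by line and group, with 1 point per library, a line at the group mean and each gene on its own axis from 0. SCO2 in HCT116 stands at 21.05 and 25.74 TPM with IgG and at 10.99 to 12.57 TPM in the 4 libraries with H2O2.

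The lines were compared under IgG, where 82.8% of the genes tested differed, so a difference between lines is the common case. Of the 9 members, 6 were higher in HCT116 (45.5% of all genes were), 1 was lower (37.3%) and 2 did not pass the test, with a median log2 difference of 0.43 beside 0.11 over all genes tested. COX15 stood apart, at 39.47 and 43.06 TPM in HCT116 against 8.63 to 9.14 TPM in all MDA-MB-231 libraries, a log2 difference of 2.08. SURF1 was higher by 1.01, COX10 by 0.63, SCO1 by 0.56, COX19 by 0.43 and COX17 by 0.39 on the log2 scale. COX18 went the other way, at 5.43 and 5.87 TPM in HCT116 and 10.80 and 11.99 TPM in MDA-MB-231, lower by a log2 difference of -0.90. SCO2 did not pass, at 19.31 and 25.47 TPM in MDA-MB-231 and 25.74 and 21.05 TPM in HCT116, with a difference of 0.07 (limma adjusted p = 0.722). It shares the HCT116 IgG libraries with the contrast that picked it. COX11 did not pass either (log2 -0.17, limma adjusted p = 0.0776), but was lower in HCT116 by -0.30 after median-of-ratios scaling, which moved the median of all genes from 0.11 to -0.01, and by -0.28 without the first MDA-MB-231 IgG library.

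SCO2, the copper-site factor that gave the family its place here, had 25.74 and 21.05 TPM in the HCT116 IgG libraries. It had 11.82 and 10.99 TPM in the H2O2 libraries and 12.57 and 11.95 TPM in the antibody libraries. The 4 libraries with H2O2 lay together below both IgG libraries. Over all genes, libraries of the H2O2 group lay wholly below IgG for 33.6%. SCO2 was picked for this fall, so neither its separation nor its rank, given next, is support. The mean with H2O2 was 11.4 ± 0.587 TPM (SD, n = 2) against 23.4 ± 3.32 TPM with IgG, 48.75% of it, a log2(TPM + 1) difference of -0.97 (SE 0.168) that ranked 26 from the lowest of 13956 genes. The antibody libraries, which also had H2O2, had 12.3 ± 0.438 TPM, 52.4% of the same IgG mean. The choice of SCO2 used those IgG libraries, so this value is no independent support. In MDA-MB-231 SCO2 had 19.31 and 25.47 TPM with IgG, 23.70 and 24.38 with H2O2 and 21.33 and 31.73 with the antibody. Those groups overlapped, and the log2 change with H2O2 was 0.11 (95% interval -0.26 to 0.48, limma adjusted p = 0.814).

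Between replicates SCO2 spread more widely than the rest of the family, with an SE of 0.168 for a group difference against 0.0591 to 0.0888 for the other 8. Only the HCT116 IgG and H2O2 libraries enter its log2 change with H2O2 in HCT116, the contrast that picked SCO2. Leaving out any 1 of them gave a change between -1.11 and -0.83. This range describes the spread and is no test, since these libraries picked SCO2. The difference between lines in that change was -1.08, given as a description since it contains the picking contrast.
Within a library, the ratio of SCO2 to SCO1, its paralog, was 0.313 and 0.269 in the HCT116 IgG libraries, 0.171 and 0.164 with H2O2, and 0.184 and 0.163 with the antibody. In the 6 MDA-MB-231 libraries it lay between 0.369 and 0.546.

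SCO2 lies beside TYMP, thymidine phosphorylase, and NCAPH2, a condensin subunit, and the counting of its reads can depend on both. In GENCODE 29 (GRCh38), 339 of 1361 exonic bases of SCO2 (24.9%) are also exon of TYMP on the same strand, and 499 (36.7%) of an antisense gene, U62317.2, which is not analysed here. In RefSeq the span of SCO2 also overlaps that of NCAPH2, which shares no exonic bases with SCO2 in GENCODE 29. No source used here gives the strand setting of the authors' counting, so how shared reads were divided is not known. In HCT116 TYMP had 32.58 and 31.90 TPM with IgG, 37.25 and 29.83 with H2O2, and 27.88 and 32.68 with the antibody. NCAPH2 had 70.61 and 83.20, then 84.70 and 78.73, then 72.28 and 73.04 TPM.
Their groups overlapped for H2O2, and neither change passed the test (log2 0.05 and 0.09, limma adjusted p = 0.862 and 0.405). The ratio of SCO2 to TYMP in HCT116 was 0.790 and 0.660 with IgG, 0.317 and 0.368 with H2O2, and 0.451 and 0.366 with the antibody.
ODF3B, the gene next to TYMP, was at 1.11 to 2 TPM in HCT116. In MDA-MB-231 it had 1.15 and 1.25 TPM with IgG, 2.45 and 1.81 with H2O2 and 2.25 and 2.34 with the antibody, and it passed the test for antibody against IgG (log2 0.58, limma adjusted p = 0.0378), but the call was lost in 8 of the 12 fits that left out a library (up to 0.192), with a replicate block (0.0616) and with the line fitted alone (0.106).

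**Figure D2:**
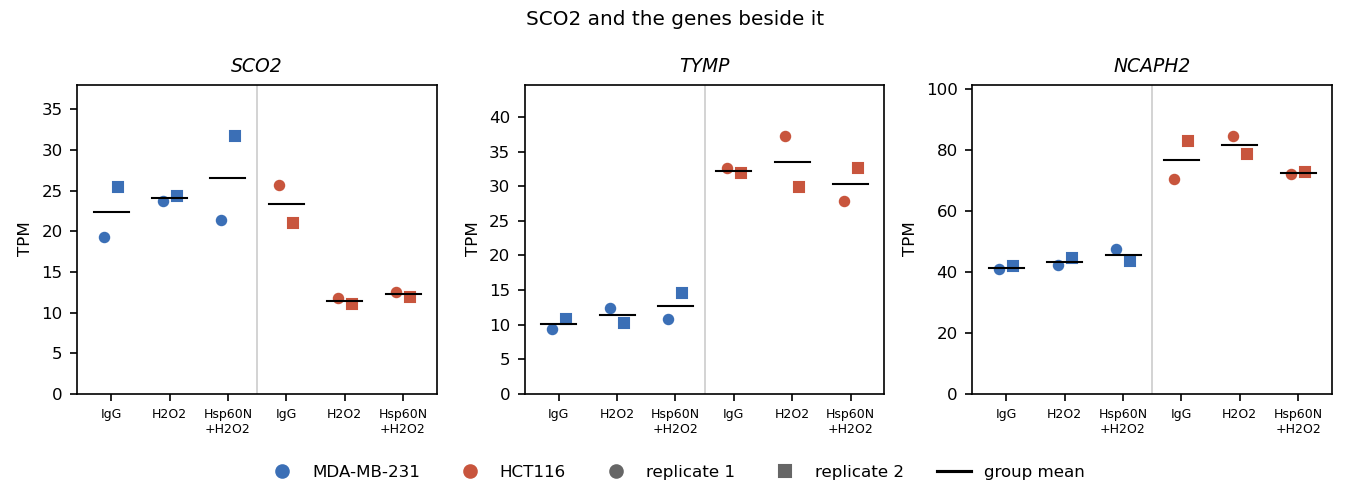
TPM of SCO2 and of TYMP and NCAPH2, the genes whose annotated span overlaps it, in the 12 libraries by line and group. SCO2, picked for its fall with H2O2 in HCT116, has the IgG libraries of that line apart from those with H2O2. In HCT116, H2O2 libraries lay wholly below IgG for 33.6% of all genes. TYMP is at 27.88 to 37.25 TPM and NCAPH2 at 70.61 to 84.70 TPM in all HCT116 libraries, with overlapping groups for H2O2 against IgG.

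For the other 8 members, H2O2 in HCT116 was tested against 32.9% of all genes called (15.4% higher, 17.5% lower). Of these, 3 fell, SCO1, COX17 and COX18, 1 rose, COX19, and 4 did not pass. Their median log2 change was -0.20, beside -0.01 over all genes tested, and 7 of the 8 were negative, as were 7215 of all 13956 genes. At an unadjusted p under 0.05 they were 6 of 8, against 43.1% of all genes. Of the 8, 5 had H2O2 libraries wholly below the IgG libraries and 1 wholly above, where 33.6% and 29.1% of all genes did.

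Of the copper route, COX17, the chaperone, had 271.45 and 239.56 TPM with IgG and 216.28 and 203.57 TPM with H2O2 in HCT116. It fell by 0.28 on the log2 scale (SE 0.0704, limma adjusted p = 0.0119). The call was lost without the first IgG library (0.0824) or the second H2O2 library (0.0828), and with the line fitted alone (0.0806).
SCO1 had 82.18 and 78.29 TPM with IgG and 69.32 and 67.20 with H2O2, with no overlap. It fell by 0.23 (SE 0.0591, limma adjusted p = 0.0131), and the call was lost without the first IgG library (0.0684) or the second H2O2 library (0.0771).
COX11 had 52.02 and 50.06 TPM with IgG and 46.23 and 41.47 with H2O2. Its libraries did not overlap, but the log2 change of -0.22 did not pass (limma adjusted p = 0.0702).
COX19 moved the other way, from 9.27 and 8.36 TPM to 11.80 and 11.74 TPM. It rose by 0.38 (SE 0.0888, limma adjusted p = 0.00819), lost without the second IgG library (0.0571) and with the line fitted alone (0.0545).

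In the heme A pair, COX15 had 39.47 and 43.06 TPM with IgG and 35.15 and 37.05 TPM with H2O2 in HCT116. Its log2 change of -0.19 did not pass (limma adjusted p = 0.0526), though it did after median-of-ratios scaling (0.0417) and without the first IgG library (0.0385). COX10, the first enzyme of the pair, had 22.75 and 22.84 against 22.76 and 22.08 TPM, a log2 change of -0.02 (95% interval -0.16 to 0.11).
COX18, the COX2 insertion factor, had 5.43 and 5.87 TPM with IgG and 3.85 and 4.11 TPM with H2O2. It fell by 0.42 (SE 0.0822, limma adjusted p = 0.0034), the largest of the 8 changes in size, and passed whichever library was left out. SURF1 overlapped between groups, at 74.77 and 85.11 against 77.31 and 73.00 TPM, with a log2 change of -0.09 (95% interval -0.26 to 0.09).

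**Figure D3:**
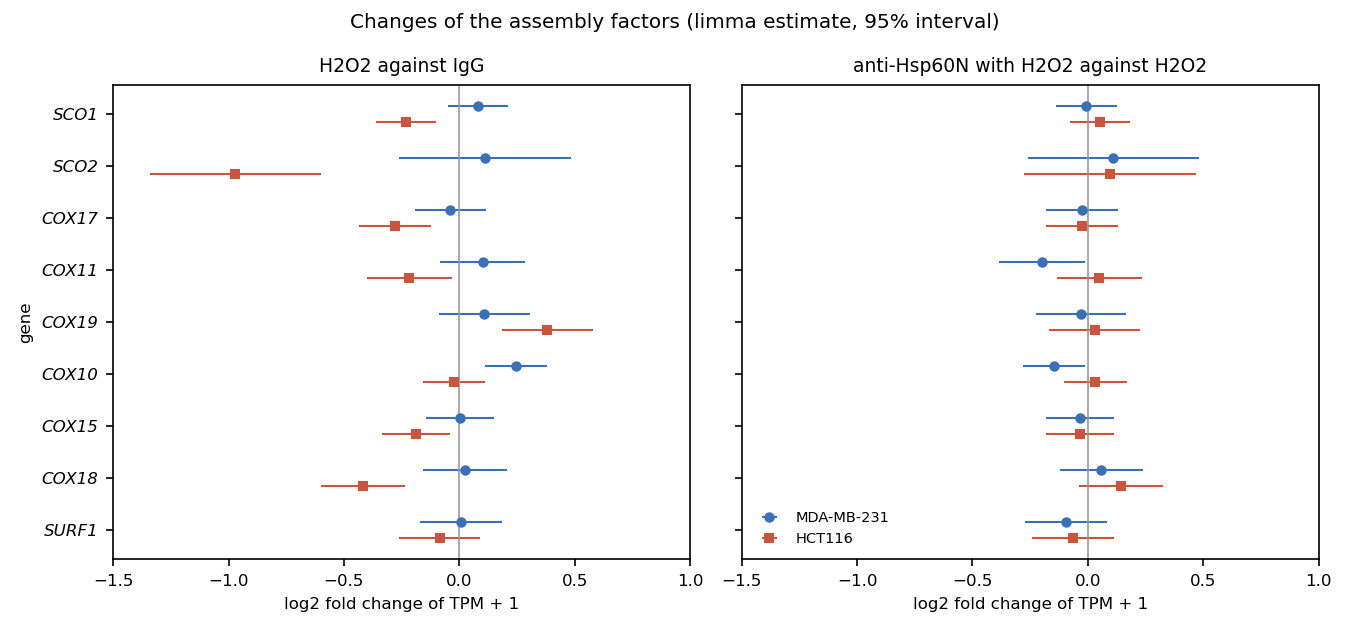
Log2(TPM + 1) changes of the 9 members (horizontal axis) for H2O2 against IgG and for antibody against H2O2 in both lines, with points at the limma estimate and bars for its 95% interval. In HCT116 with H2O2, SCO2 lies at -0.97, COX18 at -0.42 and COX19 at 0.38, while in MDA-MB-231 the 9 members lie between -0.04 and 0.25.

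Some members share exonic bases with other genes in GENCODE 29, and these partners were looked up after the values were seen. COX11 shares 14% of its exonic bases with TOM1L1 on the opposite strand, which had 38.82 and 39.17 TPM with IgG and 53.11 and 57.48 with H2O2 in HCT116. SURF1 shares 6.76% with SURF2 on the opposite strand, and SURF2 fell in HCT116 (log2 -0.45, limma adjusted p = 0.0124). COX19 shares 21.4% with ADAP1 on the same strand, which had 19.16 and 20.84 against 19.90 and 17.60 TPM. COX17 shares 17.6% with POPDC2, at 0.33 to 1.11 TPM in HCT116. COX15 shares 25.6% with AL133353.2, not analysed here. How far reads of these partners enter the members' TPM was not tested. COX11 and COX17 also have annotated pseudogenes, COX11P1 and COX17P1, which are not analysed here.

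In MDA-MB-231, 2.66% of genes were called with H2O2 and no member was. Its members had a median log2 change of 0.08, beside 0.03 over all genes tested. Of the 9, 8 were positive, as were 8173 of all 13956 genes. SURF1, COX15 and COX18 turned negative with median-of-ratios and with quantile scaling. One member had an unadjusted p under 0.05, against 16.7% of all genes. It was COX10, at 13.72 and 14.96 TPM with IgG and 17.40 and 16.96 with H2O2 (log2 0.25, limma adjusted p = 0.0648). The other members' 95% intervals, SCO2 included, lay within -0.26 to 0.48. The 2 lines were set against each other in the H2O2 change, where 17.4% of all genes differed and 9.72% had a lower change in HCT116. SCO1 and COX18 differed: SCO1 had 52.27 and 56.07 TPM with IgG and 59.20 and 55.54 with H2O2 in MDA-MB-231, and the difference between its changes was -0.31 (limma adjusted p = 0.0292). For COX18, at 10.80 and 11.99 against 11.67 and 11.51 TPM there, the difference was -0.44 (limma adjusted p = 0.0272). Both calls were lost in 5 of 12 fits that left out a library, reaching 0.108 and 0.083, and that of SCO1 also with quantile scaling (0.0713) and with a replicate block (0.0537). COX17 and COX19, which were called in HCT116, did not pass this test of the difference. In the antibody change, 0.0287% of genes differed between lines and no member did.

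The antibody was compared with H2O2 alone to ask what it adds. In HCT116 only 0.0215% of genes were called and in MDA-MB-231 0.0143%, and no member was in either, by limma. At an unadjusted p under 0.05 none of the 9 passed in HCT116, against 5.16% of all genes, and COX10 and COX11 did in MDA-MB-231, against 13.1%. SCO2 had log2 differences of 0.10 (95% interval -0.28 to 0.47) in HCT116 and 0.11 (-0.26 to 0.48) in MDA-MB-231, and the HCT116 value shares the H2O2 libraries with the picking contrast. COX18 in HCT116 had 3.85 and 4.11 TPM with H2O2 and 4.44 and 4.55 TPM with the antibody, with no overlap, as for 21.9% of all genes, and a log2 difference of 0.14 that did not pass (limma adjusted p = 0.920). In MDA-MB-231, COX10 had 17.40 and 16.96 TPM with H2O2 and 15.54 and 15.30 with the antibody (log2 -0.15, limma adjusted p = 0.3445). COX11 had 59.41 and 64.41 TPM and then 52.25 and 55.37 TPM (log2 -0.20, limma adjusted p = 0.350).

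Antibody against IgG shares its IgG libraries with the H2O2 comparison, so it is set beside it. In HCT116, where 34.3% of genes were called (16.8% higher, 17.5% lower), COX19 rose and 4 of the other tested members fell. COX17 had 196.19 and 216.14 TPM with the antibody (log2 -0.31, limma adjusted p = 0.00699). COX19 had 11.16 and 12.97 TPM (log2 0.41, limma adjusted p = 0.00519), while COX18 had 4.44 and 4.55 TPM (log2 -0.27, limma adjusted p = 0.0250). COX15, at 36.69 and 33.89 TPM, changed by -0.22 (limma adjusted p = 0.0266) and SCO1, at 68.16 and 73.51 TPM, by -0.18 (limma adjusted p = 0.0384). SURF1, COX10 and COX11 did not pass. SCO2 differed by -0.87, given as a description.
Each of these 5 calls was lost in some fit that left out a library, with adjusted p up to 0.241 for SCO1 and 0.19 for COX15, and with the line fitted alone COX17, COX15 and SCO1 did not pass. In MDA-MB-231 no member was called against 3.4% of all genes, and none had an unadjusted p under 0.05, against 19.1%.

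Other genes of the pathway were read from lists, beside 32.9% of all genes called with H2O2 in HCT116 (15.4% higher, 17.5% lower). Of 21 further complex IV assembly factors, 1 rose and 5 fell with H2O2 in HCT116, with a median log2 change of -0.06, so 28.6% were called, near the share of all genes. FDXR, the ferredoxin reductase that feeds heme A synthesis and is also on the list of p53 targets, had 90.86 and 104.2 TPM with IgG and 156.69 and 150.04 with H2O2 (log2 0.65, limma adjusted p = 0.000173). COA3, an early COX1 factor, had 65.72 and 58.62 TPM and then 40.86 and 45.04 TPM (log2 -0.52, limma adjusted p = 0.000376). TMEM177, which works with SCO2 and COX20 on COX2, fell by 0.43 and TACO1, the translational activator of COX1, by 0.34. Of 13 nuclear subunits of complex IV that were kept among 16 listed, 1 rose and 1 fell, COX7A2L and COX6B1, with a median of 0.02, a smaller share than the 32.9% of all genes. The call of COX7A2L was lost without the second IgG library or either H2O2 library. That of COX6B1 was lost without any 1 of the 4 libraries of the comparison, and also without some libraries of other groups.

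In heme synthesis, 3 of 8 genes fell and 1 rose with H2O2 in HCT116, with a median log2 change of -0.17. Over all genes 17.5% fell and 15.4% rose. CPOX, coproporphyrinogen oxidase, had 425.4 and 418.94 TPM with IgG and 316.1 and 316.93 with H2O2 (log2 -0.41), and ALAS1, the first enzyme of the pathway, had 94.65 and 96.57 and then 114.31 and 113.54 TPM (log2 0.25). UROD, uroporphyrinogen decarboxylase, had 82.77 and 88.57 TPM with IgG and 71.19 and 72.77 TPM with H2O2 (log2 -0.25), a call lost without the second IgG library. In copper handling, 4 of 12 rose and none fell, 33.3% called beside 32.9% of all genes. They included the metallothioneins MT1E, with log2 0.45, MT2A, 0.32, and MT1X, 0.54. Of 11 regulators of mitochondrial biogenesis, GABPB1 rose by 0.38 and YY1 and PPRC1 fell by 0.25 and 0.23, and the median was -0.05. That is 27.3% called, beside 32.9% of all genes. The call of GABPB1 held whichever library was left out, while YY1 was lost without the first IgG or the second H2O2 library and PPRC1 without the second IgG or either H2O2 library.
In MDA-MB-231 with H2O2 none of the 21 assembly factors or 13 subunits was called. MT1E and ALAS1 rose there (log2 0.30 and 0.24). The call of MT1E was lost without any 1 of the 4 IgG and H2O2 libraries, and also without some libraries of other groups. That of ALAS1 was lost without the second IgG library or either H2O2 library.

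SCO2 is known as a p53 target, and it was set beside 26 of 27 other listed targets that were kept. In HCT116 with H2O2, 24 of the 26 rose and none fell, where 15.4% of all genes rose, with a median log2 change of 0.89. CDKN1A, the cell cycle inhibitor, went from 185.86 and 194.98 TPM to 594.64 and 601 TPM. MDM2, the p53 ubiquitin ligase, went from 53.25 and 56.2 to 107.88 and 122.47 TPM, and TP53I3 from 19.76 and 23.51 to 37.66 and 39.95 TPM. SESN2 had log2 2.76 and TNFRSF10B log2 1.59. SCO2 moved against this list in the same libraries, but it was picked for its fall there, so its direction was set by that choice. The list was chosen with earlier results of these data known.
In MDA-MB-231 with H2O2, where 2.66% of all genes were called, 2 of the 26 rose, CDKN1A (log2 0.64) and GDF15 (log2 0.56), and CCNG1 fell by 0.36, with a median of 0.08. The call of CDKN1A held whichever library was left out, and those of GDF15 and CCNG1 were lost without any 1 of the 4 libraries compared. That of CCNG1 was also lost without some libraries of other groups. MDM2 there had 16.39 and 16.67 TPM with IgG and 17.61 and 18.06 TPM with H2O2. Among the 6 genes near SCO2, only KLHDC7B was called in HCT116, listed at 0 and 0.04 TPM with IgG and 1.44 and 0.89 TPM with H2O2.

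**Figure D4:**
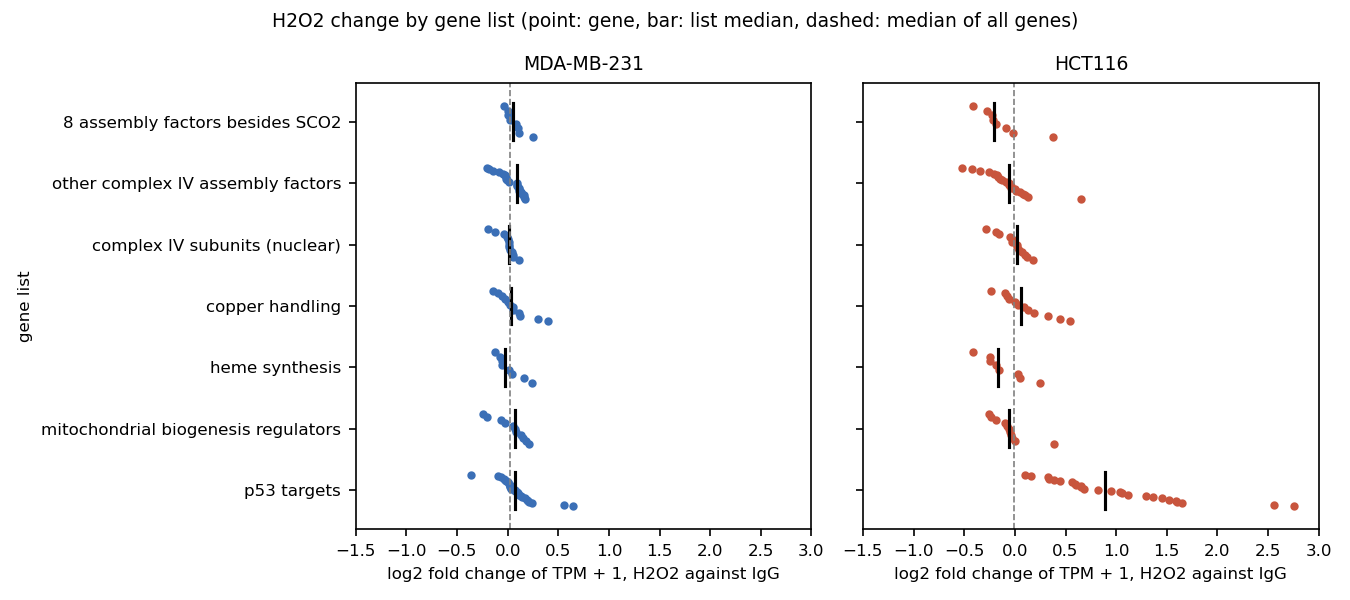
Log2(TPM + 1) changes with H2O2 of the listed genes in both lines, by list, with the list's median marked. The p53 targets have a median of 0.89 in HCT116 and 0.08 in MDA-MB-231, and the 8 members besides SCO2 -0.20 and 0.05.

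The genes most like SCO2 over the 12 libraries, after the mean of each line was subtracted, were EIF3B (r = 0.974), UBE2L3 (0.969), RAB8A (0.968), FUBP1 (0.967) and GLRX5 (0.957), of 10570 genes with a mean TPM of at least 5. These correlations are a description: the 12 libraries fall into groups, and a gene that fell with H2O2 in HCT116 alone has this shape. GLRX5, a mitochondrial iron-sulfur cluster protein, had 127.82 and 124.26 TPM in the HCT116 IgG libraries and 92.99 to 103.63 TPM in the 4 with H2O2. Among the members, SCO1 had r = 0.879 with SCO2 (rank 193 of 10570) and COX17 0.819 (rank 546). COX18 had 0.760 (rank 999), COX11 0.635 (rank 2113) and COX15 0.610 (rank 2307), so many other genes were more like SCO2. COX10 had 0.147, SURF1 0.067 and COX19 -0.705.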

How the data were processed

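Expression was measured by RNA-seq of 12 libraries in 6 groups. Gene values are TPM, deposited by the authors in 1 table of 23686 genes. Per the submitters' processing notes, bcl2fastq 2.20, STAR and RSEM were used with build hg19; no source used here gives the annotation or the strand setting. Columns were matched to samples by name, with 0 columns left over. Replicate numbers come from the labels, which do not say what they mark.

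Genes with TPM of at least 1 in at least 2 libraries were kept (13956; all others were left out). limma 3.58.1 in R 4.3.3, with an intensity trend, was run on log2(TPM + 1) with a mean for each of the 6 groups (residual df 6). P-values were adjusted by Benjamini-Hochberg over all genes kept, and an adjusted p under 0.05 counted as called. The test was tested on simulated data. Fold changes on this scale understate changes of low genes. Alternatives were other pseudocounts and filters, median-of-ratios and quantile scaling, each line alone, a replicate block, and leaving out each library.

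Named genes were all members, up to 3 genes per list and direction among those called, the neighbours of SCO2, the 5 genes most like SCO2, and CDKN1A, MDM2 and TP53I3 as levels. Members and lists were chosen with earlier results of these data known. Of 131 listed genes all were found, 4 under older symbols. A gene that this rule names is not reported here.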

Additional observations from a re-analysis of the deposited data

Results flagged for a closer look

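The change with H2O2 differed between HCT116 and MDA-MB-231 for SCO1 (difference of log2 changes -0.31, limma adjusted p = 0.0292) and COX18 (-0.44, limma adjusted p = 0.0272), by a test of the difference itself. Both calls were lost in 5 of 12 fits that left out a library (adjusted p up to 0.108 and 0.083), and that of SCO1 also with a replicate block (0.0537) and with quantile scaling (0.0713). In HCT116 both fell, and in MDA-MB-231 neither change passed the test. The lines also differed in medium and tissue, which cannot be told apart from the line here.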

How the results depend on the processing

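With each line fitted alone, 2 members besides SCO2 were called for H2O2 in HCT116 instead of 4 and 2 for antibody against IgG instead of 5, and 86 and 101 genes were called in MDA-MB-231 for H2O2 and for antibody against IgG instead of 371 and 475. For antibody against H2O2, a mean TPM of at least 5 left 1 gene in HCT116 instead of 3 and 0 in MDA-MB-231 instead of 2, where a pseudocount of 0.5 left 1, the line alone 0 and a replicate block 1. For the line difference of the antibody change a mean TPM of at least 5 left 0 instead of 4. Quantile scaling and a replicate block each left 1 member besides SCO2 with a line difference of the H2O2 change instead of 2. With 2 libraries a group and no read depth, the precision of low genes cannot be given from counts. The labels do not say what the replicate numbers mark. Differences between replicates 1 and 2 correlated at 0.104, 0.164 and 0.012 between the MDA-MB-231 groups. Between the HCT116 groups they correlated at -0.127, 0.0552 and 0.0458. With a replicate block, H2O2 called 4396 genes in HCT116 and 274 in MDA-MB-231, and antibody against IgG 4593 and 375. Among the members the block ended the calls of SCO1 for antibody against IgG in HCT116 (limma adjusted p = 0.0652) and for the line difference (0.0537), and no other.

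Leaving out 1 library gave 3000 to 4650 genes for H2O2 in HCT116 and 116 to 434 in MDA-MB-231, 3 to 7 and 1 to 3 for antibody against H2O2, and 2953 to 4817 and 145 to 551 for antibody against IgG. It gave 11011 to 11546 genes for the lines under IgG, 1251 to 2335 for the line difference of the H2O2 change and 3 to 6 for that of the antibody change. Members besides SCO2 called were 2 to 4 for H2O2 in HCT116, 2 to 5 for antibody against IgG in HCT116 and 0 to 4 for the line difference of the H2O2 change. For the lines under IgG 7 to 8 of all 9 were called.

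Some log2 differences that had not passed the test changed sign, and none passed with the other sign. With median-of-ratios and with quantile scaling, SURF1 was at -0.0234 and -0.0112, COX15 at -0.0259 and -0.0229 and COX18 at -0.0051 and -0.0158 for H2O2 in MDA-MB-231. SCO1 was at 0.0153 and 0.0155 for antibody against H2O2 in MDA-MB-231, COX10 at -0.0023 and -0.0009 for antibody against IgG in HCT116, and SURF1 at -0.0033 and -0.0023 and COX15 at -0.0263 and -0.0330 for the line difference of the antibody change. SCO2 under IgG was at -0.0605 between lines with median-of-ratios scaling. The cause was not tested. Ranges over the left-out libraries that spanned 0 follow.
For H2O2 against IgG in HCT116 they were NCAPH2 -0.0266 to 0.2070, TYMP -0.1085 to 0.2026 and SURF1 -0.1778 to 0.0067.
For H2O2 against IgG in MDA-MB-231 they were SCO2 -0.0803 to 0.3019, COX11 -0.0030 to 0.2054, COX18 -0.0452 to 0.0935, SURF1 -0.0637 to 0.0794, COX17 -0.0936 to 0.0166 and COX15 -0.0172 to 0.0232.
For antibody against H2O2 in HCT116 they were COX17 -0.0965 to 0.0426, TYMP -0.2945 to 0.0166, COX11 -0.0273 to 0.1260, COX15 -0.0881 to 0.0232, SCO1 -0.0019 to 0.1056, COX10 -0.0023 to 0.0675 and COX19 -0.0706 to 0.1296.
For antibody against H2O2 in MDA-MB-231 they were SCO1 -0.0516 to 0.0389, COX18 -0.0126 to 0.1303, COX17 -0.0688 to 0.0156, COX19 -0.1050 to 0.0439, ODF3B -0.0665 to 0.2296, SCO2 -0.1651 to 0.3865 and TYMP -0.0679 to 0.3422.
For antibody against IgG in HCT116 they were ODF3B -0.0125 to 0.3053, TYMP -0.2028 to 0.0190, NCAPH2 -0.1930 to 0.0407 and COX10 -0.0254 to 0.0445.
For antibody against IgG in MDA-MB-231 they were COX11 -0.2013 to 0.0071 and SCO2 -0.0543 to 0.4973.
For HCT116 against MDA-MB-231 under IgG they were SCO2 -0.1245 to 0.2577 and ODF3B -0.0599 to 0.2579.
For the line difference of the H2O2 change they were TYMP -0.2667 to 0.0445 and NCAPH2 -0.0906 to 0.1430.
For the line difference of the antibody change they were SCO2 -0.2899 to 0.2617, COX17 -0.0699 to 0.0692, COX19 -0.0400 to 0.1602, SURF1 -0.0499 to 0.1064 and COX15 -0.0523 to 0.0591.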
